A study of Drosophila melanogaster with 6 samples.

Results

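The genes encoding Futsch, Sallimus and other very large cytoskeletal proteins were examined in Δ*l(3)mbt* OSCs that received an siRNA against *ovo* or against *renilla*. The 9 genes were taken by their symbols: *futsch*, *sls*, *shot*, *Msp300*, *kst*, *alpha-Spec*, *beta-Spec*, *zip* and *cher*, out of 17807 genes in the table. They were chosen by their measured levels in these same 6 libraries, with their differences between the siRNAs in view, so their levels and fold changes stand here as a description and carry no test. OSCs are a *Drosophila melanogaster* cell line grown from the somatic follicle lineage of the ovary. All 6 cultures were l3mbt knockout cells, which lack the chromatin repressor L(3)mbt and express the germline transcription factor gene *ovo*. The comparison therefore asks which transcripts depend on *ovo* in these knockout cells, 48 h after the siRNA. There were 3 ovo siRNA libraries and 3 renilla siRNA libraries, the second set using a control siRNA against a luciferase that flies lack, and no library of cells with intact *l(3)mbt* is in the comparison. The knockout cells are a single purchased line, and the knockdown was partial.

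Cells hold their shape with filament networks and with very long proteins that tie these networks together. Spectrin forms a flexible lattice under the plasma membrane, in which each tetramer pairs α subunits with β subunits, and in flies the α subunit can pair either with the conventional β chain or with the heavy chain encoded by *kst*. Spectraplakins such as Shot and MAP1B-type proteins such as Futsch act on microtubules, nesprins such as Msp300 join nuclei to the cytoskeleton, titin-like proteins such as Sallimus act as springs in muscle, and filamin and non-muscle myosin II cross-link and pull on actin. In the ovary, follicle cells use spectrin, myosin II and Shot to keep an ordered epithelium, whereas Futsch is best known from neurons and Sallimus from muscle.

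The transcripts of these genes are long and some carry internal repeats, which matters for how many short reads can be assigned to them. Genome positions are given on BDGP6 (dm6) for the transcribed strand, and the letters come from the RefSeq copy of that build. In *futsch*, an exon of 13820 bases at chrX:1433476-1447295 holds a tandem repeat with a period of 111 bases, and 3 consecutive copies starting at chrX:1438779-1438889 (plus strand) are identical. In *sls*, an exon of 7461 bases at chr3L:2062454-2069914 has a period of 213 bases, with 3 identical copies of which the first in transcript order is chr3L:2068863-2069075 (minus strand). The units are shown because a 50-base read lying inside them fits more than 1 place.
futsch repeat unit: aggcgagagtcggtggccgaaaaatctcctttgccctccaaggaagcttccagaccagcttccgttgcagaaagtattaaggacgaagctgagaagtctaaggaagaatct
sls repeat unit: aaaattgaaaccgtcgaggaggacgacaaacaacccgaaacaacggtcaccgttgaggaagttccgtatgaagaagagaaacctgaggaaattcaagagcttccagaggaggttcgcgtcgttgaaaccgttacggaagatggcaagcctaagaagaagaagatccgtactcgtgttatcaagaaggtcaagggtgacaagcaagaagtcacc

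Of all 50-base runs in the exons, 14.1% in *Msp300*, 9.14% in *sls* and 6.92% in *futsch* occur more than once in the genome, and the other 6 genes have 0. Reads from such runs can be dropped or misplaced in every library, so the levels of these 3 genes may be understated beside the other 6. The siRNA against *ovo* was also set against the exons, because a short guide can act on transcripts other than its target. Its antisense strand is shown with bases 2 to 8 in capitals, the seed, and it pairs with *ovo* at chrX:5066359-5066379.
ovo siRNA antisense strand: uCGUCGUCcacgcagcuccuu

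The longest run that the target of this strand shares with any of the 9 genes is 10 bases, against 21 bases in *ovo* itself. Runs of this length were found in *futsch*, *Msp300*, *kst*, *beta-Spec* and *zip*. Matches to the seed alone were not counted, and the sense strand and other genes were not compared. Whether the siRNA acts on any of the 9 genes was therefore not tested.

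The libraries differed in depth and in how they treated long transcripts, and both points bear on genes of this size. Reads assigned to genes, recovered from the normalized counts, numbered 14276921 to 21481506 in the ovo siRNA libraries and 2759594 to 11623446 in the renilla siRNA libraries. The lowest total was that of renilla siRNA replicate 3. Within each group, the level of a gene relative to the other libraries of its group ran with its exonic length: across 7868 genes with a length, Spearman's rank correlation was 0.61, -0.32 and -0.55 in ovo siRNA replicates 1, 2 and 3, and 0.52, 0.58 and -0.63 in renilla siRNA replicates 1, 2 and 3. Genes share their library here and are not independent. Long transcripts were thus relatively abundant in ovo siRNA replicate 1 and renilla siRNA replicates 1 and 2. They were scarce in renilla siRNA replicate 3, in ovo siRNA replicate 3 and, less so, in ovo siRNA replicate 2. Results are given with and without renilla siRNA replicate 3, which had the lowest correlation and the fewest reads. The targeted gene *ovo* had 961, 885 and 875 normalized counts in the ovo siRNA libraries against 1300, 1590 and 1642 in the renilla siRNA libraries, a 1.66-fold lower level (log2 fold change -0.73 ± 0.13 SE, limma adjusted p = 0.00862). *l(3)mbt* RNA was still counted in both groups, at 2911 ± 426 and 2334 ± 582 (SD, n = 3 each), so the knockout could not be read from its transcript level. Follicle-lineage markers were present: all 8 of the list passed the minimum for testing (10 normalized counts in 3 libraries), among them *tj* (8941 ± 327 in ovo siRNA and 12763 ± 1034 in renilla siRNA), and their summed level was 34772 to 41644 in ovo siRNA libraries and 47396 to 55998 in renilla siRNA libraries. Of these 8 markers 5 fell (*tj*, *zfh1*, *ct*, *mirr* and *ImpL2*, at log2 fold changes of -0.51 to -2.96), *fs(1)Yb* rose (0.61, limma adjusted p = 0.0353) and 2 did not pass. These counts stand beside 14.1% of all tested genes called lower and 11.8% called higher. The call of *zfh1* was lost without ovo siRNA replicate 2 or 3 or renilla siRNA replicate 1 or 2 (highest limma adjusted p = 0.0912).

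*futsch* (chrX:1409069-1453686, plus strand, 23.3 kb of exons), the fly MAP1B homolog that stabilises microtubules at synapses and in axons, had 1932, 1456 and 1479 normalized counts in the ovo siRNA libraries against 8508, 8410 and 5889 in the renilla siRNA libraries. The groups were far apart, since the highest ovo siRNA library lay well below the lowest renilla siRNA library. The level was 1622 ± 268 in ovo siRNA and 7603 ± 1484 in renilla siRNA (SD, n = 3 each), 4.66-fold lower, with a log2 fold change of -2.22 ± 0.19 (SE), or -2.39 without renilla siRNA replicate 3. In these bulk cultures, fewer cells that express a gene and less RNA per cell cannot be told apart.

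*shot* (chr2R:13864237-13942110, minus strand, 30.4 kb of exons) encodes the spectraplakin that links actin to microtubules. It had 3161, 1950 and 2178 normalized counts in the ovo siRNA libraries against 4639, 4754 and 4484 in the renilla siRNA libraries. The 3 renilla siRNA libraries were nearly level with each other, unlike for the other 8 genes, whereas ovo siRNA replicate 1 stood above its own group without reaching the other. The log2 fold change was -0.96 ± 0.19, a 1.95-fold lower level, and -0.98 without renilla siRNA replicate 3. Leaving out any 1 library gave -1.17 (without ovo siRNA replicate 1) to -0.82. Per kilobase of exon, *futsch* stood at 0.886 ± 0.088 times *shot* in ovo siRNA and at 2.14 ± 0.37 times *shot* in renilla siRNA (SD, n = 3 each). The order of the pair was therefore reversed, with *futsch* below *shot* in all 3 ovo siRNA libraries and above it in all 3 renilla siRNA libraries.

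*sls* and *Msp300* are the giants best known from muscle. *sls* (chr3L:2039681-2115611, minus strand, 59.0 kb of exons), the titin-like spring of the sarcomere that is also found on chromosomes, had 196, 105 and 127 normalized counts in the ovo siRNA libraries against 425, 422 and 320 in the renilla siRNA libraries. It was 2.79-fold lower, with a log2 fold change of -1.48 ± 0.25, or -1.61 without renilla siRNA replicate 3. That library held only 73 *sls* reads, so its value is imprecise beside the 442 and 466 reads of the other renilla siRNA libraries, and the groups were nonetheless separate.

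*Msp300* (chr2L:5100877-5207002, plus strand, 69.8 kb of exons), the nesprin that anchors nuclei through its KASH domain and that spans actin and the nuclear envelope, had 2674, 1436 and 1447 normalized counts in the ovo siRNA libraries against 3701, 3315 and 2767 in the renilla siRNA libraries. The groups did not overlap but nearly touched, the difference between ovo siRNA replicate 1 and renilla siRNA replicate 3 being -0.049 log2 units. The log2 fold change was -0.87 ± 0.25, a 1.83-fold lower level, and -0.98 without renilla siRNA replicate 3. Leaving out any 1 library gave -1.17 (without ovo siRNA replicate 1) to -0.72.

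The genes of the muscle sarcomere had very different levels in these cells, and 8 of 14 on a list passed the minimum. *Act88F*, the flight muscle actin, had 0 to 0.464 normalized counts in ovo siRNA libraries and 0 to 2.73 in renilla siRNA libraries, where 3 reads are worth 1.39 to 2.18 and 2.73 to 13.1 normalized counts. *TpnC73F*, a muscle troponin C, was at 0 in 5 of the 6 libraries. *Mhc*, the muscle myosin heavy chain, averaged 60.0 ± 8.9 in ovo siRNA and 67.7 ± 5.6 in renilla siRNA. The summed level of the list was 2263 to 3220 in ovo siRNA libraries and 2277 to 4035 in renilla siRNA libraries, and most of it was *Zasp52*, a Z-disc and adhesion protein gene (1946 to 2892 and 1839 to 3403). The muscle actin gene *Act57B* had 13.5 ± 1.2 in ovo siRNA and 10.4 ± 7.1 in renilla siRNA, and *up* and *wupA*, the genes of troponin T and troponin I, had 4.85 ± 1.12 and 2.42 ± 1.76 in ovo siRNA and 6.26 ± 5.46 and 4.86 ± 1.34 in renilla siRNA.

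The spectrins split. *kst* (chr3L:3336860-3368133, plus strand, 14.5 kb of exons), the heavy β chain of the apical membrane, had 53.9, 37.6 and 34.1 normalized counts in the ovo siRNA libraries against 248, 272 and 109 in the renilla siRNA libraries. All 3 ovo siRNA libraries lay below all 3 renilla siRNA libraries, but renilla siRNA replicate 3, with 25 *kst* reads, was 1.24 log2 units below the other 2 of its group, the widest gap of that kind among the 9 genes. The log2 fold change was -2.22 ± 0.36, a 4.66-fold lower level, and -2.63 without that library.

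*alpha-Spec* (chr3L:1778485-1795328, minus strand, 8.35 kb of exons), the subunit common to both spectrin tetramers, had 11211, 8928 and 8862 normalized counts in the ovo siRNA libraries against 10946, 10897 and 6678 in the renilla siRNA libraries. *beta-Spec* (chrX:17657372-17669371, plus strand, 7.90 kb of exons), the conventional β chain of the lateral membrane, had 8480, 6619 and 6760 in the ovo siRNA libraries against 7469, 7450 and 3937 in the renilla siRNA libraries. For both genes the groups overlapped, and renilla siRNA replicate 3 was the lowest of all 6 libraries. The log2 fold changes were 0.052 ± 0.22 for *alpha-Spec* and 0.26 ± 0.26 for *beta-Spec*, and without renilla siRNA replicate 3 they were -0.18 and -0.043, and *alpha-Spec* was also below 0 without ovo siRNA replicate 1 (-0.060). The sign of these small differences thus depended on which libraries were included.

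Ratios taken inside a library do not depend on how libraries are scaled, although they can move with the tilt by length. Per kilobase of exon, *kst* was 0.00311 ± 0.00036 times *beta-Spec* in ovo siRNA and 0.0178 ± 0.0024 times *beta-Spec* in renilla siRNA (SD, n = 3 each). Counted as a share of the 2 β chains together, *kst* made up 0.310% ± 0.036 in ovo siRNA and 1.74% ± 0.23 in renilla siRNA, so it was a minor chain in both groups. The ratio of *alpha-Spec* to *beta-Spec* was 1.25, 1.28 and 1.24 in the ovo siRNA libraries against 1.39, 1.38 and 1.60 in the renilla siRNA libraries. Both genes were among the most abundant in the cells, at the 97.9th and 96.8th percentile of mean level among tested genes, and *kst* was at the 22.9th.

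*zip* and *cher* are the actin motor and cross-linker of the set. *zip* (chr2R:24990570-25011965, minus strand, 7.24 kb of exons), the heavy chain of non-muscle myosin II, had 13372, 10168 and 10784 normalized counts in the ovo siRNA libraries against 18556, 18539 and 10553 in the renilla siRNA libraries. Renilla siRNA replicates 1 and 2 were above every ovo siRNA library and replicate 3 lay among them, so the groups overlapped. The log2 fold change of -0.44 ± 0.25 became -0.71 without renilla siRNA replicate 3.

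*cher* (chr3R:17091533-17125389, minus strand, 9.43 kb of exons), the filamin of the ring canals that join germ cells and of follicle cells, went the other way. It had 3665, 2876 and 2701 normalized counts in the ovo siRNA libraries against 1933, 1784 and 1226 in the renilla siRNA libraries. Every ovo siRNA library was above every renilla siRNA library, and *cher* was the only one of the 9 genes for which this held. The level was 1.89-fold higher, with a log2 fold change of 0.92 ± 0.20, or 0.72 without renilla siRNA replicate 3. Inside a library, *zip* was 4.85 ± 0.31 times *cher* per kilobase in ovo siRNA and 12.4 ± 1.2 times *cher* in renilla siRNA.

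**Figure D1:**
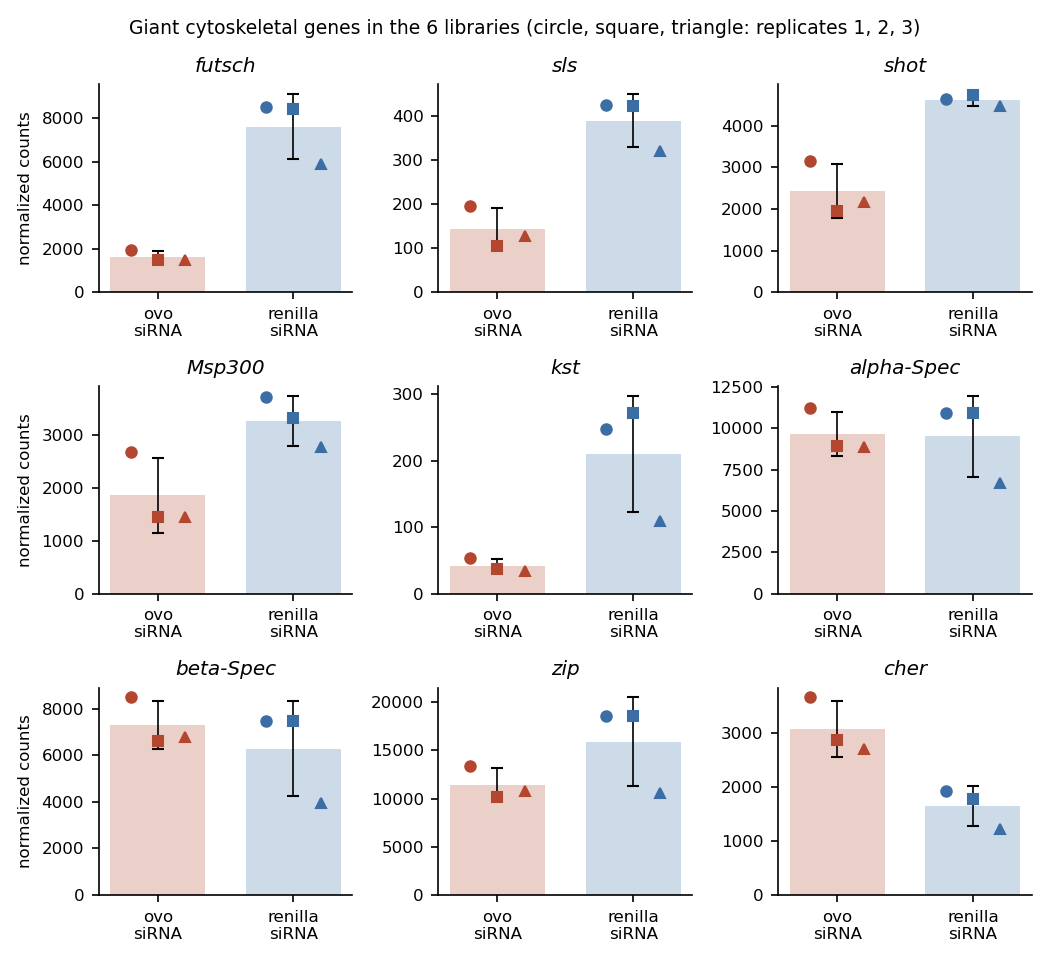
Normalized counts (vertical axis, linear, from 0, own scale for each gene) of the 9 giant cytoskeletal genes in ovo siRNA (left) and renilla siRNA (right) libraries, with bars at the mean, error bars of 1 SD (n = 3) and 1 symbol per replicate. The groups are separate and lower in ovo siRNA for *futsch*, *sls*, *shot*, *Msp300* and *kst*, separate and higher for *cher*, and overlap for *alpha-Spec*, *beta-Spec* and *zip*, where the third renilla siRNA library (triangle) is lowest or near lowest.

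**Figure D2:**
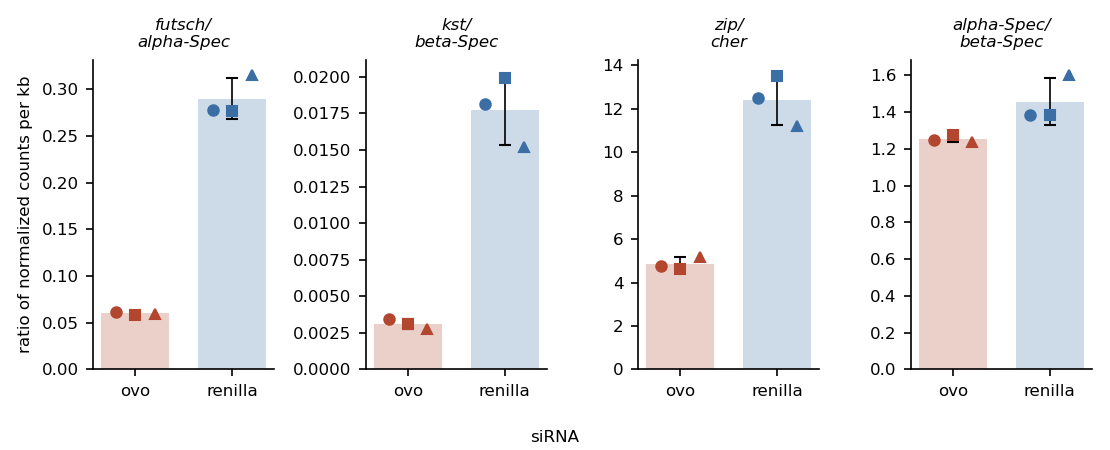
Ratios of normalized counts per kilobase of exon between pairs of the genes, taken inside each library (vertical axis, linear, from 0), for ovo siRNA (left) and renilla siRNA (right), with bars at the mean, error bars of 1 SD (n = 3) and symbols as replicates. The ratio of *futsch* to *alpha-Spec* is 0.0600 in ovo siRNA and 0.290 in renilla siRNA, and in all 4 panels the groups do not overlap.

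Across the set, levels per kilobase of exon covered a wide range. In ovo siRNA the order of means was *zip* (1580 normalized counts per kilobase), *alpha-Spec* (1158), *beta-Spec* (923), *cher* (327), *shot* (79.9), *futsch* (69.6), *Msp300* (26.5), *kst* (2.90) and *sls* (2.42). In renilla siRNA it was *zip* (2193), *alpha-Spec* (1139), *beta-Spec* (796), *futsch* (326), *cher* (175), *shot* (152), *Msp300* (46.7), *kst* (14.5) and *sls* (6.59). The place of *futsch* differed most, below *cher* and *shot* in ovo siRNA and above both in renilla siRNA. Neighbours whose values overlapped between libraries were *alpha-Spec* with *beta-Spec* in both groups, *shot* with *futsch* and *kst* with *sls* in ovo siRNA, and *cher* with *shot* in renilla siRNA. These levels divide by the union of annotated exons, which for *sls*, *Msp300* and *shot* is much longer than many single transcripts, and the isoforms used in OSCs were not resolved by gene counts.

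Read against all 7893 tested genes, 5 of the 9 genes were past the threshold of an adjusted p of 0.05 and lower, where the background was 14.1%, and 1 was past it and higher, where the background was 11.8%. At least 2-fold lower were 3 of them (*futsch*, *sls* and *kst*), beside 7.99% of all tested genes. The groups did not overlap and were lower for 5, beside 21.7%, and higher for 1, beside 23.6%. The median log2 fold change was -0.87 for the 9 genes and 0.043 for all tested genes. Since the genes were chosen on this contrast, nothing is read from these counts. Together the 9 genes took 0.459%, 0.337% and 0.332% of reads in the ovo siRNA libraries against 0.533%, 0.516% and 0.298% in the renilla siRNA libraries, with a 95% Wilson interval of 0.291% to 0.304% for the last, which covers counting error only.

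Above 1 kb, the median fold change was lower in each longer class of genes. Over all 7868 genes with a length, Spearman's rank correlation of the log2 fold change with length was -0.17, and genes are not independent replicates. The median log2 fold change was -0.042 for 1172 genes under 1 kb, 0.19 for 2469 genes with 1 to 2 kb of exons, 0.12 for 2523 genes with 2 to 4 kb, -0.17 for 1154 genes with 4 to 7 kb, -0.48 for 423 genes with 7 to 12 kb, -0.82 for 105 genes with 12 to 20 kb and -1.17 for the 22 genes above 20 kb, 4 of the 9 among these last. Of 501 other genes at least as long as *zip*, the shortest of the 9, 215 fell, 2 rose and 284 did not pass the limma test, with a median log2 fold change of -0.55. Among all tested genes 14.1% were lower and 11.8% higher. With the exonic length trend removed, 86 of the 501 fell and 130 rose, beside 1337 lower and 1827 higher of all genes with a length. With the median transcript length in its place 160 fell and 93 rose, beside 1470 lower and 1988 higher. Without renilla siRNA replicate 3 there were 385 that fell and 7 that rose, beside 2023 lower and 2032 higher of all tested genes. Without ovo siRNA replicate 2, ovo siRNA replicate 3 or renilla siRNA replicate 2 there were 90, 119 and 141 that fell. Of all tested genes 374, 544 and 654 were lower in those sets. The 2 that rose with the deposited scaling were *Kank*, a cortical adaptor gene (1208 ± 73 in ovo siRNA and 510 ± 85 in renilla siRNA, limma adjusted p = 0.00268), and *sev*, a receptor tyrosine kinase gene (11771 ± 1364 and 5407 ± 2197, limma adjusted p = 0.0292). *cher* stood with them as a long gene that was higher. The call of *sev* was lost when any ovo siRNA library or renilla siRNA replicate 2 was left out (highest limma adjusted p = 0.0948).

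The 3 long genes that fell most were *nAChRalpha6*, an acetylcholine receptor subunit (2.72 ± 1.5 in ovo siRNA and 34.5 ± 30.9 in renilla siRNA, limma adjusted p = 0.0144), *CG32206* (3.90 ± 0.28 and 35.5 ± 3.4, limma adjusted p = 0.00205) and *IA-2*, a phosphatase-like protein of secretory vesicles (3.32 ± 1.17 and 29.2 ± 1.5, limma adjusted p = 0.00276). The renilla siRNA mean of *nAChRalpha6* was carried by replicate 3 (70.1, against 19.1 and 14.3 in replicates 1 and 2), and its log2 fold change of -2.99 was -2.32 without that library, a smaller change than those of *CG32206* (-2.82) and *IA-2* (-2.80). The call of *nAChRalpha6* was lost without ovo siRNA replicate 2 (limma adjusted p = 0.0720). All 3 genes were below 10 normalized counts in every ovo siRNA library. They passed the minimum through the renilla siRNA libraries alone, so they could only be called lower.

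**Figure D3:**
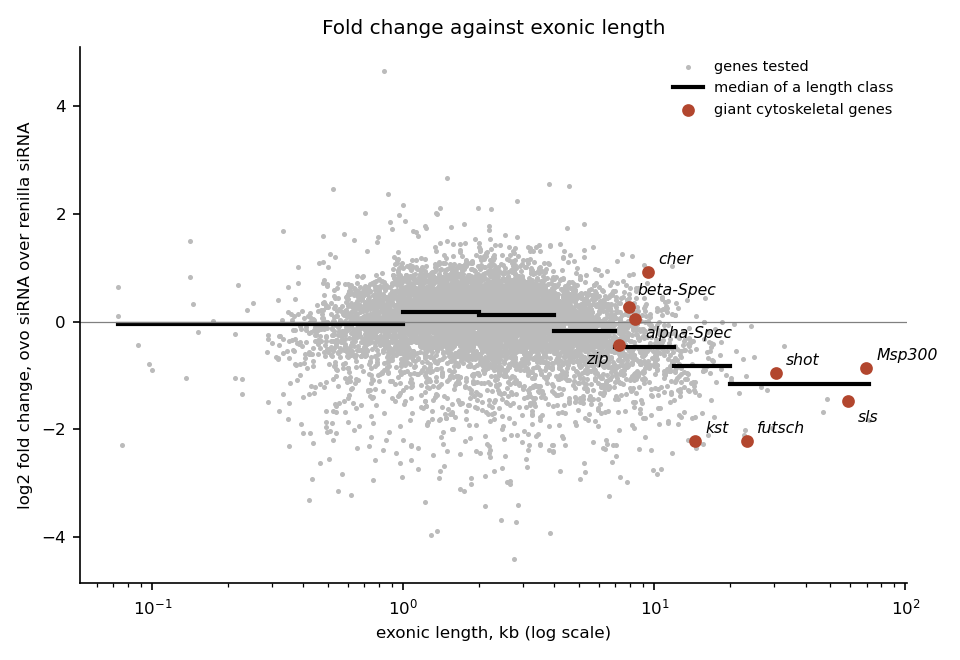
Log2 fold change of ovo siRNA over renilla siRNA (vertical axis) against exonic length in kb (horizontal axis, log scale), with 1 grey point per tested gene, black bars at the median of each length class and red points for the 9 giant cytoskeletal genes. Class medians go from 0.19 at 1 to 2 kb to -1.17 above 20 kb, with *futsch* and *kst* below and *cher* above the medians of their classes.

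In the level of a single gene, a difference that runs with length and one that does not cannot be told apart, so the smooth trend with exonic length was removed from each library and the differences were taken again. By construction this also takes away any difference between the siRNAs that runs with length. *futsch* then had 2260, 2371 and 2433 adjusted normalized counts in the ovo siRNA libraries against 5230, 5235 and 4916 in the renilla siRNA libraries. The libraries of each group moved closer together and the log2 fold change was -1.12 ± 0.09. *kst* had 58.1, 54.5 and 50.8 against 167, 182 and 106, a log2 fold change of -1.43 ± 0.22. Both kept separate groups and their direction.

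The other 3 genes that were lower did not. *Msp300* had 3948, 3154 and 3038 adjusted normalized counts in the ovo siRNA libraries against 1848, 1772 and 1523 in the renilla siRNA libraries, a log2 fold change of 0.97 ± 0.12. *shot* became higher by 0.31 ± 0.11 log2 units and *sls* by 0.25 ± 0.14, with overlapping groups for *sls*. Only 7 tested genes have over 30 kb of exons, so the trend rests on few genes where *Msp300*, *sls* and *shot* lie. When the median annotated transcript length replaced the exon union (this choice was made after seeing the data), the log2 fold changes were 0.49 for *Msp300*, -0.030 for *shot* and 0.069 for *sls*, against -1.20 for *futsch* and -1.45 for *kst*.

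The shorter members shifted upward. *cher* was at 1.46 ± 0.08 with the exon trend removed, with 3729, 3708 and 3615 adjusted normalized counts in ovo siRNA libraries against 1421, 1292 and 1313 in renilla siRNA libraries. *alpha-Spec* was at 0.52 ± 0.11 and *beta-Spec* at 0.71 ± 0.13, both now with separate groups, and *zip* was at -0.040 ± 0.13 with overlapping groups. The median of the 9 genes was 0.31 on this scale, and that of all genes 0.081. Across all tested genes the calls were 1827 higher and 1337 lower with the trend removed, against 931 higher and 1114 lower with the deposited scaling.

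**Figure D4:**
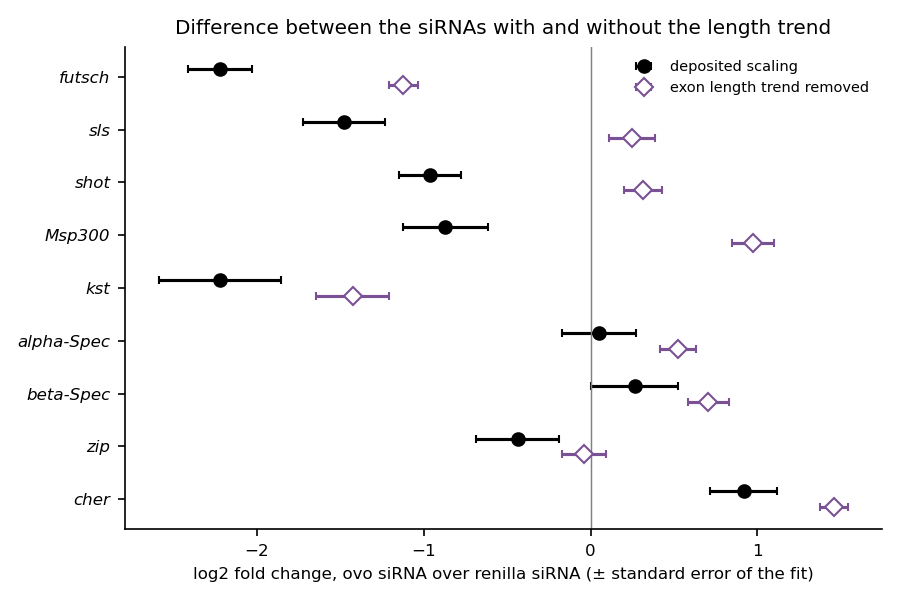
Log2 fold change of ovo siRNA over renilla siRNA with its standard error from the fit (horizontal axis, n = 3 libraries a group) for the 9 genes, with the deposited scaling (filled circles) and with the exonic length trend removed from each library (open diamonds). *futsch* and *kst* stay below 0 and *cher* above it on both scales, while *sls*, *shot* and *Msp300* cross to the other side of 0.

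**Figure D5:**
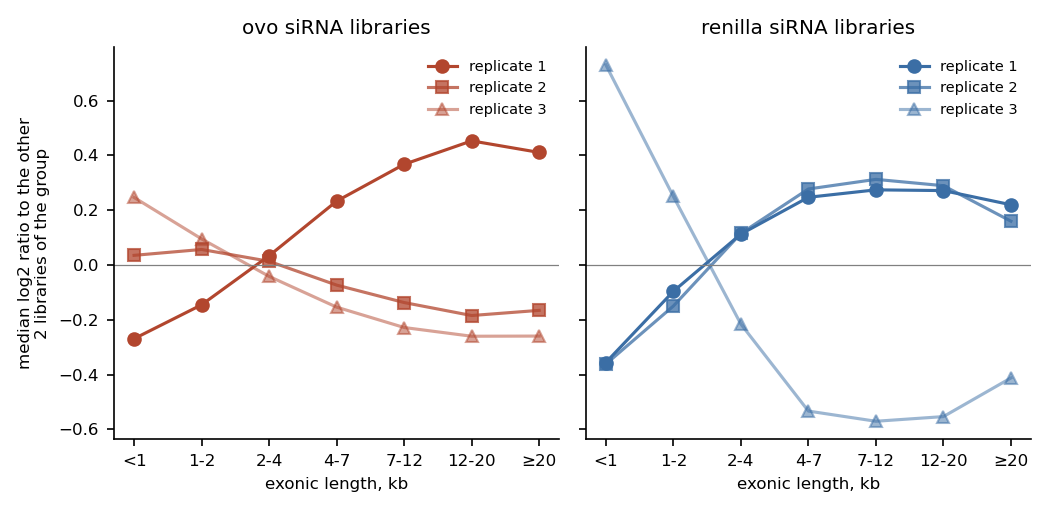
Median log2 ratio of each library to the other 2 libraries of its group (vertical axis) by class of exonic length in kb (horizontal axis), for ovo siRNA (left) and renilla siRNA (right) libraries, 1 line per replicate. Renilla siRNA replicate 3 goes from 0.73 in the shortest class to -0.57 at 7 to 12 kb, and ovo siRNA replicate 1 from -0.27 to 0.37.

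The same tilt was seen in the members inside each group. In ovo siRNA replicate 1 all 9 genes were above the other 2 ovo siRNA libraries, by 0.33 log2 units for *alpha-Spec* to 0.89 for *Msp300*. In renilla siRNA replicate 3 all 9 were below the other 2 renilla siRNA libraries, by -0.067 for *shot* to -1.24 for *kst*. Per kilobase, the ratio of *futsch* to *alpha-Spec* was 0.0617, 0.0584 and 0.0598 in ovo siRNA libraries against 0.278, 0.276 and 0.316 in renilla siRNA. The tilt inside a group was similar in their length classes, 7 to 12 kb for *alpha-Spec* and above 20 kb for *futsch*. It was 0.37 and 0.41 in ovo siRNA replicate 1 and -0.57 and -0.41 in renilla siRNA replicate 3. Such a tilt moves this ratio little inside a group. Between the siRNAs the 2 classes differed, with median log2 fold changes of -0.48 at 7 to 12 kb and -1.17 above 20 kb. With the exonic length trend removed, *futsch* went from -2.22 to -1.12 and *alpha-Spec* from 0.052 to 0.52, so the ratio does move with length between the siRNAs. The part of length in that difference was not tested.

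Genes that work with these proteins were read from 6 lists, in which 19 of 82 tested genes passed the limma test. This is beside 2045 of all 7893 tested genes, a similar share, so nothing is read from the total. Each count of a list stands beside 14.1% of all tested genes that were called lower and 11.8% that were called higher, and beside 1337 lower and 1827 higher of all genes with the exonic length trend removed. Without renilla siRNA replicate 3 the shares of all tested genes were 25.6% lower and 25.7% higher. Over the 6 sets with 1 library left out, 374 to 2023 of all tested genes were called lower and 112 to 2032 higher. The set around spectrin had 11 genes, with 0 that rose and 1 (9.09%) that fell, against 3 that rose and 0 that fell with the length trend removed. This was *Ank2*, the long neuronal ankyrin gene with 47.0 kb of exons (9.37 ± 4.34 in ovo siRNA and 31.0 ± 8.3 in renilla siRNA, limma adjusted p = 0.0232), and its call was lost with the length trend removed (limma adjusted p = 0.849) and without ovo siRNA replicate 1 or 2 or renilla siRNA replicate 1 or 2. The other 10 did not pass, among them *Ank*, *hts* and *cora*. Without renilla siRNA replicate 3 there were 8 of 11 that fell, and over the 6 sets with 1 library left out the count was 0 to 8.

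Of 10 genes around myosin II, 3 (30%) fell and 0 rose, against 2 that fell and 1 that rose with the length trend removed. *flw*, a myosin phosphatase subunit, had 925 ± 74 in ovo siRNA and 1315 ± 150 in renilla siRNA (log2 fold change -0.50, limma adjusted p = 0.0295). It lost its call with the length trend removed (limma adjusted p = 0.153), and with 1 library left out it kept its call only when that library was renilla siRNA replicate 3. With 1 library left out the list had 0 to 6 genes that fell, the highest without renilla siRNA replicate 3.

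Of 22 tested genes of actin assembly and cross-linking, 3 (13.6%) fell and 0 rose, a share near that of all genes, against 2 that fell and 4 that rose with the length trend removed. They were *Tm1*, a tropomyosin (-0.67, limma adjusted p = 0.00851), *chic*, profilin (-0.84, limma adjusted p = 0.0205), and *Fim*, fimbrin (-0.44, limma adjusted p = 0.0371). With the length trend removed *chic* was at -0.89, while *Tm1* and *Fim* lost their calls (limma adjusted p = 0.670 and 0.218). With 1 library left out 0 to 6 genes fell, the highest without renilla siRNA replicate 3, and *Tm1* lost its call in 1 of the 6 sets (without ovo siRNA replicate 2), *chic* in 4 and *Fim* in 5.

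Microtubule genes gave 6 (25.0%) that fell and 1 (4.17%) that rose of 24, against 5 that fell and 4 that rose with the length trend removed. *tau*, the microtubule-associated protein of axons, had 35.4, 28.3 and 28.3 normalized counts in the ovo siRNA libraries against 92.0, 140 and 153 in the renilla siRNA libraries. This 4.02-fold lower level (log2 fold change -2.01, limma adjusted p = 0.00270) passed under all 19 alternatives, including the removal of the length trend (-1.61). *Eb1*, a plus-end binding protein (-0.68, limma adjusted p = 0.00818), *nudE*, a dynein regulator (-0.66, limma adjusted p = 0.0106), and *betaTub60D*, a β-tubulin (-0.76, limma adjusted p = 0.0133), also fell and kept their direction with the trend removed. Each of these 3 lost its call without ovo siRNA replicate 2 (highest limma adjusted p over the libraries left out = 0.0722), and with 1 library left out the list had 1 to 10 that fell, the highest without renilla siRNA replicate 3. The other 2 that fell were *ens* and *Map205*, and the one that rose was *alphaTub84D* (3246 ± 56 in ovo siRNA and 2445 ± 102 in renilla siRNA, limma adjusted p = 0.0308), named after their values were seen. *alphaTub84D* has a near-identical copy in *alphaTub84B*, so its count is uncertain.

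Of 7 genes of the nuclear envelope, where Msp300 is anchored, 1 (14.3%) rose and 0 fell, a share near that of all genes, against 2 that rose and 1 that fell with the length trend removed. It was *LamC*, an A-type lamin (323 ± 13 in ovo siRNA and 197 ± 57 in renilla siRNA, limma adjusted p = 0.0461), whose call was lost in 5 of the 6 sets with 1 library left out. *koi* and *klar*, the SUN protein and the other nesprin, did not pass. With 1 library left out 0 to 3 genes of this list fell, the highest count being without renilla siRNA replicate 3.

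Of 8 tested sarcomere genes, 3 (37.5%) fell and 1 (12.5%) rose, against 2 that fell and 2 that rose with the length trend removed. *bt*, the gene of another titin-like protein with 28.0 kb of exons, was 2.41-fold lower (64.6 ± 15.2 in ovo siRNA and 156 ± 27 in renilla siRNA, limma adjusted p = 0.00791). The call of *bt* was lost with the length trend removed (-0.052), and *sls* was no longer lower on that scale. *Prm*, paramyosin, fell (118 ± 14 and 272 ± 76, limma adjusted p = 0.0124), and so did *Mlc1*, a muscle myosin light chain (3.03 ± 0.32 and 16.7 ± 1.1, limma adjusted p = 0.00669). *Mlc1* was below 10 normalized counts in every ovo siRNA library. It passed the minimum through the renilla siRNA libraries alone, so it could only be called lower. It did not pass when all libraries were thinned to the depth of the shallowest (limma adjusted p = 0.0957). *Mlc2* rose (27.6 ± 2.0 and 11.9 ± 4.0, limma adjusted p = 0.0308). *bt* and *Prm* lost their calls without ovo siRNA replicate 2, and *Mlc2* lost its call without any 1 of the ovo siRNA libraries or renilla siRNA replicate 2.

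Markers of other cell types were read beside *futsch*, a neuronal gene in the organism. Of 8 neuron markers 4 passed the minimum, and their summed level was 1653 to 1876 in ovo siRNA libraries and 1852 to 2505 in renilla siRNA libraries. Nearly all of this was *elav*, an RNA-binding protein gene of neurons (1693 ± 109 and 2015 ± 357), which did not pass the test, while *para*, a sodium channel gene (15.7 ± 1.1 and 70.6 ± 0.5), and *Rbp6* (17.1 ± 5.8 and 85.2 ± 21.5) fell. *Appl* did not pass (14.2 ± 2.9 and 16.4 ± 7.2). The 2 of 4 that fell stand beside 14.1% of all tested genes. *para* and *Rbp6* have 16.3 and 15.6 kb of exons, and 53.3% of genes with 12 to 20 kb were called lower. Below the minimum, *nSyb* was higher in ovo siRNA on average (9.10 ± 4.38 and 6.17 ± 3.76) and *fne* lower (2.08 ± 0.76 and 12.1 ± 5.1). The synaptic genes *Syt1* (0.485 to 1.39 in ovo siRNA libraries and 2.86 to 4.38 in renilla siRNA libraries) and *brp* (1.39 to 2.43 and 4.38 to 6.38) were near 0. Of 6 hemocyte markers 2 passed the minimum and neither passed the test, with a summed level of 537 to 818 in ovo siRNA libraries and 320 to 632 in renilla siRNA libraries, and *He* was at 0 in 5 of the 6 libraries. Of 5 germ cell markers 2 passed the minimum, with a summed level of 2176 to 2488 in ovo siRNA libraries and 1787 to 2357 in renilla siRNA libraries, nearly all of it *vas* (2252 ± 151 and 1963 ± 271). The other was *aub*, which fell (46.2 ± 9.5 and 107 ± 15, limma adjusted p = 0.00884). The part of these genes in the level of *futsch* was not tested.

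For each of the 9 genes, the gene with the most similar profile was sought among 6325 others averaging 100 or more normalized counts, as the smallest root mean square difference of centred log2 values over the 6 libraries. The likeness is a description and carries no test. For *futsch* it was *kon*, a transmembrane proteoglycan gene, at 0.21 log2 units, and *kon* was also nearest to *kst*, at 0.24. These were the 2 least well matched genes, since for *alpha-Spec* (*l(2)k05819*, 0.033), *zip* (*CG12717*, 0.037), *beta-Spec* (*sti*, 0.047), *cher* (*CG43693*, 0.046) and *shot* (*nej*, 0.055) another gene followed the same 6 values closely. For *sls* and *Msp300* the nearest were *tud* and *zfh1*, both at 0.12.

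The start sites of the 9 genes were read for the letters CNGTTA and CCGTTA on either strand, the motifs that the study links to Ovo binding. Windows from 250 bases before to 50 bases after each annotated start numbered 26, of which 9 (34.6%) held CNGTTA, beside 4716 of 11861 windows (39.8%) of all tested protein-coding genes. CCGTTA, which is contained in CNGTTA, was in 1 of 26 (3.85%), beside 1196 of 11861 (10.1%). The one window was that of *cher*, the member that was higher in ovo siRNA, and it also held CTGTTA. All 3 windows of *kst* held CNGTTA, as did 1 of 4 of *shot*, 2 of 5 of *Msp300*, 2 of 3 of *zip* and 1 of 5 of *cher*. Those of *futsch*, *sls*, *alpha-Spec* and *beta-Spec* held none. The sites of *kst*, where all windows held a match, and the CCGTTA site of *cher* are shown with the motif, or its reverse complement, in capitals. Sites of the other genes are not shown. The shares of windows with either motif were below those of all tested genes, so nothing is read from these sites. Those of *kst* are at chr3L:3336751-3336780, chr3L:3336916-3336945 and chr3L:3349885-3349914 (plus strand), and that of *cher* with CCGTTA is at chr3R:17119062-17119091 (minus strand).
kst site 1: tataagcatcgaTAACTGcacctagaagtg
kst site 2: tcccaaaaccgcTAACTGaaaaataaataa
kst site 3: tttcagatacctTAACCGttttctcatact
cher site: taagaatttattTAACGGtggtacgtgctc

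Such a match describes these letters only, and which start the cells used was not measured.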

How the data were processed

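Poly(A) RNA from 3 ovo siRNA and 3 renilla siRNA cultures of Δ*l(3)mbt* OSCs was sequenced by the study, which describes its replicates as distinct samples. Where the cultures were not grown independently, the p-values measure only the spread between these libraries. The authors trimmed reads with Cutadapt 1.18, aligned them with STAR 2.7.3a and counted them per gene and strand with featureCounts (Subread 1.5.3) on dm6. The signal deposited by the authors is the gene count divided by a DESeq2 1.30.1 size factor ("normalized counts"). Values were whole multiples of 1 unit per library (100% within 0.01), which returned the reads: 2759594 to 21481506 per library. A table of the authors' own fold changes and p-values was not used.

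Genes reaching 10 normalized counts in 3 or more libraries (7893) were fitted as log2(normalized count + 1) with limma 3.58.1 (R 4.3.3, trend, Benjamini-Hochberg over all, threshold 0.05). Fold changes are on that scale and understate low genes. On simulated data with 7825 genes, limma called 21 of 66 genes changed 1.5-fold, 54 of 67 changed 2-fold and 66 of 66 changed 4-fold. The simulated libraries differed in depth but carried no tilt by exonic length, so these shares may not hold for the real libraries. Exonic length is the union of annotated exons in Ensembl BDGP6.54, matched by symbol for 17019 genes and by an older symbol for 723, with 65 unmatched. The length trend was a natural spline with 5 degrees of freedom on log2 length, fitted in each library to values centred on the mean of all 6. Alternatives were the pseudocount (0.5, 5), the filter (none, 50), TMM, quantile normalization, edgeR 4.0.16 and DESeq2 1.42.0 on recovered reads, a replicate block, the length trend, thinning to 2759594 reads, and leaving out each library. The members and lists were chosen with earlier results of these data known. Up to 4 genes per list were named, in order of adjusted p among those past the threshold. Named long genes were the 3 largest changes in each direction past it. The nearest gene to each member was also named. The results of some named genes are not reported here.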

Additional observations from a re-analysis of the deposited data

How the results depend on the processing

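Removing the exonic length trend reversed *sls* (0.25), *shot* (0.31) and *Msp300* (0.97), turned the median of the 9 genes to 0.31, and gave 3164 genes past the threshold (2045 with the deposited scaling) and 86 long genes that fell (215). With renilla siRNA replicate 3 also left out, the same 3 genes were at 0.16, 0.41 and 0.89, the median at 0.41, and the counts were 4278 genes, 120 long genes and 37 list genes (19). With median transcript length, both alternatives being chosen after seeing the data, *sls* was at 0.069 and *Msp300* at 0.49, the median at 0.069, and the counts were 3458 genes and 31 list genes. DESeq2 on recovered reads called 30 list genes. Leaving out 1 library gave 486 to 4055 genes, 90 to 385 long genes, 2 to 46 list genes and 3 to 5 of the 9 at least 2-fold lower. Of the values of the 9 genes under 19 alternatives, 147 moved by less than 1 SD, 16 moved further and 8 reversed. The label reversed was by definition given only to genes past the threshold. Within 1 SD of their value, *alpha-Spec* changed sign under 2 alternatives and *beta-Spec* under 1. The cause of these shifts was not tested.

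Whether replicate numbers pair the libraries was not settled: same-numbered libraries correlated at 0.44, -0.14 and 0.46 in their deviations. Ovo siRNA replicates 1 and 3 were closest to the renilla siRNA library of their own number. Replicate 1 was nearly as close to renilla siRNA replicate 2 (0.43). A replicate block gave 2978 genes past the threshold and 30 list genes, and left the fold changes as they were. The 2759594 reads of renilla siRNA replicate 3 limit the levels of *kst* (25 reads) and *sls* (73 reads).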
